A study of Mus musculus with 2 samples.

Results

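Heat shock proteins and chaperonins are protein-folding factors, taken here as the genes whose symbols begin with Hspa, Hspb, Hspd, Hspe, Hsph or Hsp90, with Dnaja, Dnajb or Dnajc and a digit, or with Cct and a digit from 2 to 8. The endoplasmic reticulum chaperones Hspa5, Hsp90b1 and Dnajb9 and pseudogenes were left out. The rule used symbols only and found 81 genes among 32286 features. They were measured in bone marrow hematopoietic cells of mice by droplet-based sequencing of transcript 3′ ends, in 1 library per genotype and 2 libraries in all. The control library was Mx1Cre+/-;Rosa26+/+ and the MYC library Mx1Cre+/-;Rosa26LSL-MYC/LSL-MYC. Both genotypes thus carry Mx1-Cre, whose promoter responds to interferon. The second also has on both Rosa26 alleles a MYC transgene kept silent by a stop cassette until Cre cuts it out. Ages, the number of animals per library and any inducing treatment are not given in the sources used here. The comparison asks how marrow blood cells differ once MYC is overexpressed from their stem cells. With 1 library per genotype there are no replicates, no difference was tested, and genotype cannot be told apart from library preparation. Intervals of levels, ratios and shares are 95% intervals for counting error only.

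Chaperones of the HSP70 family bind exposed hydrophobic stretches of proteins in cycles of ATP hydrolysis, which J proteins (the Dnaj genes) start and nucleotide exchange factors end. HSP90 acts later on kinases and receptors, HSP60 with HSP10 folds proteins inside mitochondria, and the ring-shaped cytosolic chaperonin TRiC, built of the Cct subunits, folds actin, tubulin and other substrates. Some of these genes run in every growing cell, whereas others are switched on by heat shock factor 1 when proteins misfold, through repeated GAA units in their promoters. In marrow, erythroid precursors and dividing progenitors are known for a heavy folding load, and tissue dissociation is a known inducer of the HSP70 genes.

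Promoter windows from RefSeq on GRCm38.p6, running from 250 bases before to 50 bases after the transcription start, were found for 65 of the 81 genes. Each was searched on both strands, overlaps allowed, for a pair of inverted units (GAANNTTC or TTCNNGAA) and for 3 units in a row (GAANNTTCNNGAA or TTCNNGAANNTTC, which hold the pair within them). The pair stood in 20 of the 65 members (30.8%) and in 17.0% of 27025 genes, and 3 units in 4 members (Hsph1, Hspd1, Hspe1 and Dnajb6) and 0.662% of genes. By group, the pair stood in 7 of 8 stress-inducible genes (not in Dnajb1), 2 of 8 constitutive cytosolic, 2 of 7 mitochondrial, 3 of 7 chaperonin, 1 of 7 endoplasmic reticulum J protein and 0 of 5 nuclear and ribosome J protein genes. A match describes the letters of the window and not the binding of a factor. A gene was counted if any of its windows matched. For genes with 2 windows (Hsph1, Dnajb4 and Dnaja4 below) the window with the most motif letters is printed. The windows below are those of the stress-inducible genes with the lowest ratios between the libraries and of Hspe1, shown because they hold the motif, whose letters are in capitals, each 5′ to 3′ on the gene's strand. They lie at chr17:34972107-34972406 (Hspa1a, minus strand), chr17:34959189-34959488 (Hspa1b, minus strand), chr5:149636287-149636586 (Hsph1, minus strand), chr3:152193796-152194095 (Dnajb4, minus strand), chr9:54699309-54699608 (Dnaja4, plus strand) and chr1:55087898-55088197 (Hspe1, plus strand).
Hspa1a: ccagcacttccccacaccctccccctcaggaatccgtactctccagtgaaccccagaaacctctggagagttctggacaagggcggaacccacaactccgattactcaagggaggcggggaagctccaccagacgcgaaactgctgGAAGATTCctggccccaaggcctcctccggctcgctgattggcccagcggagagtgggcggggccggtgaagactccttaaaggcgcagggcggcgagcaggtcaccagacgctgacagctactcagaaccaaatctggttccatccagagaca
Hspa1b: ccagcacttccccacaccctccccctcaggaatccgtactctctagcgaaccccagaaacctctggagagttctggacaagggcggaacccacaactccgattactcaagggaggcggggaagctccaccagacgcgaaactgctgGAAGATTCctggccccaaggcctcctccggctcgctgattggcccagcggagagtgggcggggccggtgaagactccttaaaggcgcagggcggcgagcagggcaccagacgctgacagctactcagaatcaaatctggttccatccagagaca
Hsph1: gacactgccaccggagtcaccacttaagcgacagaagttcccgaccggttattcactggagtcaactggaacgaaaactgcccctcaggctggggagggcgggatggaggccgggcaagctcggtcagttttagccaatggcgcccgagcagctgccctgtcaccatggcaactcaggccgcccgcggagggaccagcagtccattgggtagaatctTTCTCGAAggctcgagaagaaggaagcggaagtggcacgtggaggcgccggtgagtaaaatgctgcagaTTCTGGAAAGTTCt
Dnajb4: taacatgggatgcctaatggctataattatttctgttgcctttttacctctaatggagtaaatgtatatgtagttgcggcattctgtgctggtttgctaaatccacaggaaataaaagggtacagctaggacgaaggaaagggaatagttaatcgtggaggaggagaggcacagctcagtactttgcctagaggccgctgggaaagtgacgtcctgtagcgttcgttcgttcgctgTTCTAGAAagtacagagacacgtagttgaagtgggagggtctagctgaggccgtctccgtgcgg
Dnaja4: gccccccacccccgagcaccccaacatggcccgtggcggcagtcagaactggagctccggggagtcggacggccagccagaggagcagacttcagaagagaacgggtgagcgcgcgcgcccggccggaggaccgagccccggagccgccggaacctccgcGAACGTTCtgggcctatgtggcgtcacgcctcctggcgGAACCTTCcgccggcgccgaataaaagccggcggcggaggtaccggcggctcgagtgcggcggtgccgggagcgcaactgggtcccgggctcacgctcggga
Hspe1: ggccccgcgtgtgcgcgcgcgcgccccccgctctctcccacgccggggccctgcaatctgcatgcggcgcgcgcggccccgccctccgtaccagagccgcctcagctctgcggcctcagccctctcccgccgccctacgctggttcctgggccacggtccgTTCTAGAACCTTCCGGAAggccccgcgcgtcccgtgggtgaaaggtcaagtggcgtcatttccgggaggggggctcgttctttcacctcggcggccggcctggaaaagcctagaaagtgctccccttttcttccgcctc
The Hspa1a and Hspa1b windows differed at 4 of 300 bases and hold 1 pair each, beginning 104 bases before the start. Over the last 500 bases of their transcripts, however, the 2 genes shared 0% of 90-base words, so that a 3′ read can be assigned to 1 of them. The Hspe1 window overlaps that of Hspd1 by 285 bases, and these 2 genes, which code for the partners HSP10 and HSP60, are read away from each other out of the same stretch.

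Depth, as unique molecular identifiers (UMIs), was 131884603 over 17073 control barcodes and 110012176 over 14496 barcodes with MYC, of which 14903 cells (median 5343 UMIs) and 12540 cells (median 6016 UMIs) were kept. The feature named MYC had 0 UMIs in kept control cells (upper limit 0.0303 UMIs per 1000000, written CPM below) against 289 UMIs (2.84 CPM) in cells of the MYC library. The libraries shared 97 barcode sequences, 79 of them among kept cells. Clusters were named from marker genes, and each class name below stands for cells like that type. The 11 classes with at least 100 cells per library were compared: stem or multipotent progenitors, granulocyte progenitors, immature and mature neutrophils, monocytes, conventional dendritic cells, mature B cells, T or NK cells, early and late erythroid cells, and basophils or mast cells. Some names are loose: the dendritic cluster was led by Mrc1 beside class II genes, and mature neutrophils fell into clusters of unlike makeup (1970 and 249, 168 and 1548, and 2047 and 1496 cells in control and MYC). Early erythroid cells joined a shallower cluster (887 and 334 cells, medians of 12045 and 6988.5 UMIs) and a deeper one (283 and 132 cells, 32445 and 29605 UMIs). Their class values thus mix unlike levels, and the part of this mixing was not tested. The monocyte class is 1 cluster (marker score 2.10), and another with a higher monocyte score (2.34, 670 and 643 cells) stayed unnamed and is not in its values. Late erythroid cells had median depths of 5705 and 2127 UMIs, and their median over all features, 0.31 on the log2 scale, lay apart from those of the other classes (-0.30 to -0.03), so that their ratios are given sparingly. Summed RNA of 6 neutrophil genes (S100a8, S100a9, Camp, Ngp, Ltf and Lcn2), which free RNA can carry into other cells, stood at 9532 and 5034 CPM in stem or multipotent progenitors of the control and MYC libraries, 17274 and 14741 in monocytes, 11828 and 17386 in early and 24994 and 58032 in late erythroid cells. The part of this RNA in the results was not tested.

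The members made up 0.540% of the UMIs of kept control cells and 0.553% of those of the MYC library. Of the 81, 65 had at least 50 UMIs over both libraries in some compared class. The other 16 never did (Cct6b, Dnajb7, Dnajb8, Dnajb13, Dnajc22, Hspa1l, Hspa12b, Hspb1, Hspb2, Hspb3, Hspb7, Hspb8, Hspb9, and Cct8l1, Dnajc5b and Dnajc5g, which had no UMI at all). The summed levels of the main groups differed more between classes than between libraries. The 8 chaperonin genes summed to 1610 CPM in control stem or multipotent progenitors, 1396 in early erythroid cells, 1138 in monocytes, 372 and 202 in immature and mature neutrophils, and 185 in late erythroid cells. In the MYC library the same sums were 1884, 1604, 1511, 476, 250.5 and 336 CPM. Constitutive cytosolic genes summed to 5112 CPM in stem or multipotent progenitors, 4499 in monocytes, 1089 in mature neutrophils and 980.2 in late erythroid cells of the control. In early erythroid cells they summed to 3443 and 3917 CPM in control and MYC. The shallower early erythroid cluster, however, held 1692 and 1661 CPM of them and the deeper 5968 and 5674 CPM. Chaperonin sums in these clusters were 693 and 779, and 2410 and 2247 CPM. The stress-inducible sum, mostly Hsp90aa1 except in late erythroid cells, was highest in early erythroid cells, at 1670.5 and 1315 CPM in control and MYC.

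**Figure D1:**
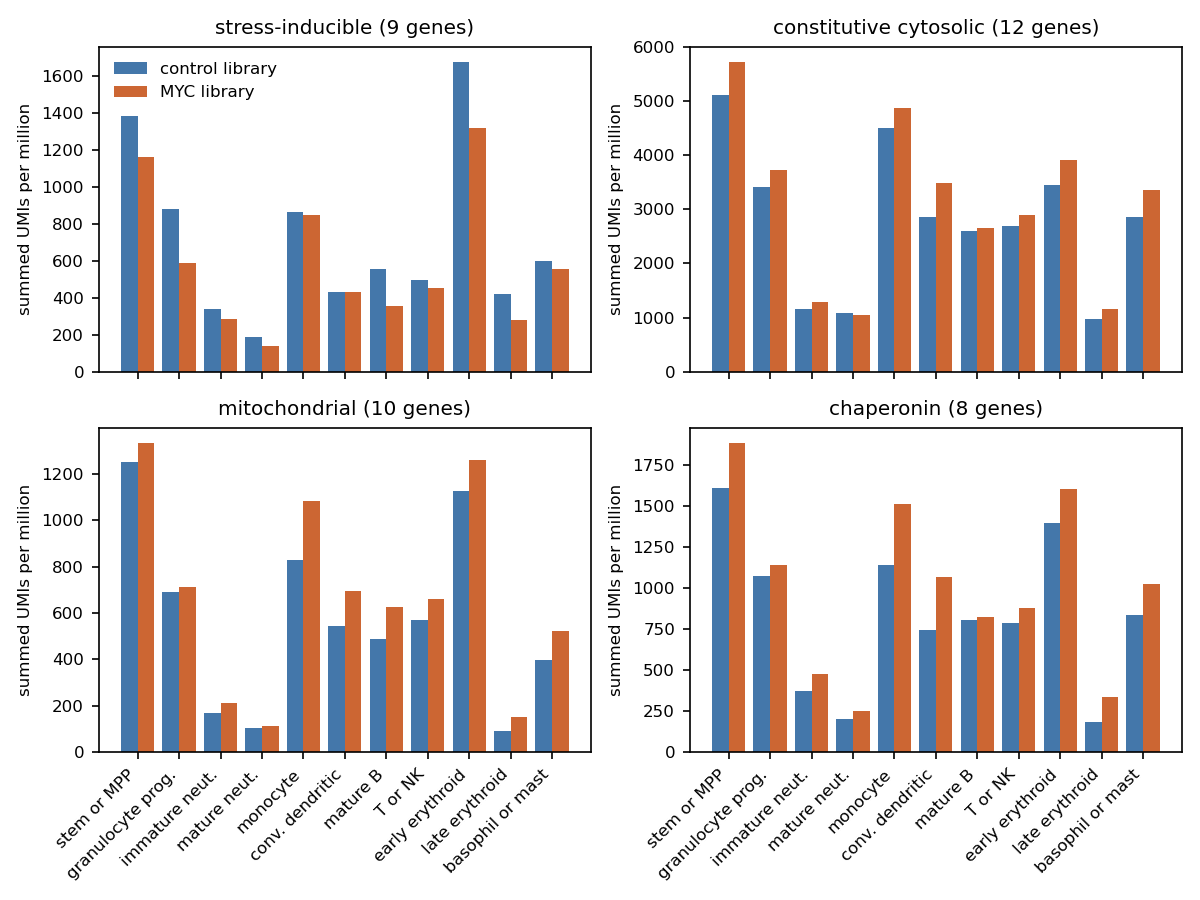
Summed CPM in each cell class (horizontal axis) for 4 groups of chaperone genes, as bars for the control library (blue) and the MYC library (orange), 1 library each; stem or MPP means stem or multipotent progenitor. Stress-inducible bars are lower in the MYC library in early erythroid cells (1670.5 and 1315) and granulocyte progenitors (879 and 587), and chaperonin bars are higher in it in monocytes (1138 and 1511).

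Most members had their peak among the 11 compared classes in the same class of both libraries. Among the 46 that reached 20 CPM in some class of each library, 36 did so: 10 in stem or multipotent progenitors, 8 in early and 5 in late erythroid cells, and the others in 7 further classes. The 5 with a late erythroid peak were Dnajb2, Dnaja4, Dnajb4, Dnajb6 and Hspbap1. Dnajb2 (GRCm38, chromosome 1, 75236406 to 75245692), a J protein that passes clients on to degradation, stood at 324 CPM in late and 107 CPM in early erythroid cells of the control, and between 3.18 and 12.8 CPM in its other 9 classes. In the MYC library it stood at 211 and 77.3 CPM in those erythroid classes, which were again the highest. Dnaja4, a J protein of the inducible set, had 106.5 and 38.9 CPM in late and early erythroid control cells, against 10.7 CPM in T or NK cells and 2.87 or less elsewhere. Dnajb4 followed with 162 and 54.6 CPM and no more than 23.5 CPM in any other compared class, but megakaryocytes, too few for comparison (60 and 62 cells), held 302 and 53.9 CPM of it.

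Other members peaked elsewhere among the compared classes. Dnajc7, a J protein that binds both HSP70 and HSP90, was highest in mature B cells (184 and 159 CPM), and stood higher still in B progenitors (600.3 and 575 CPM, 428 and 17 cells) and plasmacytoid dendritic cells (488 and 437 CPM, 255 and 70 cells), which were not compared. Dnajc5, the cysteine string protein of secretory vesicles, was highest in mature neutrophils (121 and 85.9 CPM). Dnaja1, the main cytosolic type A J protein, peaked in granulocyte progenitors (247 and 273 CPM) and Hspa8 in monocytes (1601 and 1511 CPM). Plasma cells, which were too few for comparison (242 and 83 cells), held Dnajc3 at 364 and 401 CPM and Dnajb11 at 148 and 149 CPM, both J proteins of the endoplasmic reticulum. These levels lay above those of every compared class (at most 199.7 CPM for Dnajc3 and 102 CPM for Dnajb11). Plasma cells also held most UMIs of Hspb1, the small heat shock protein HSP27: 53 of its 63 UMIs in kept control cells and 62 of 70 in the MYC library, or 10.6 and 34.8 CPM.

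**Figure D2:**
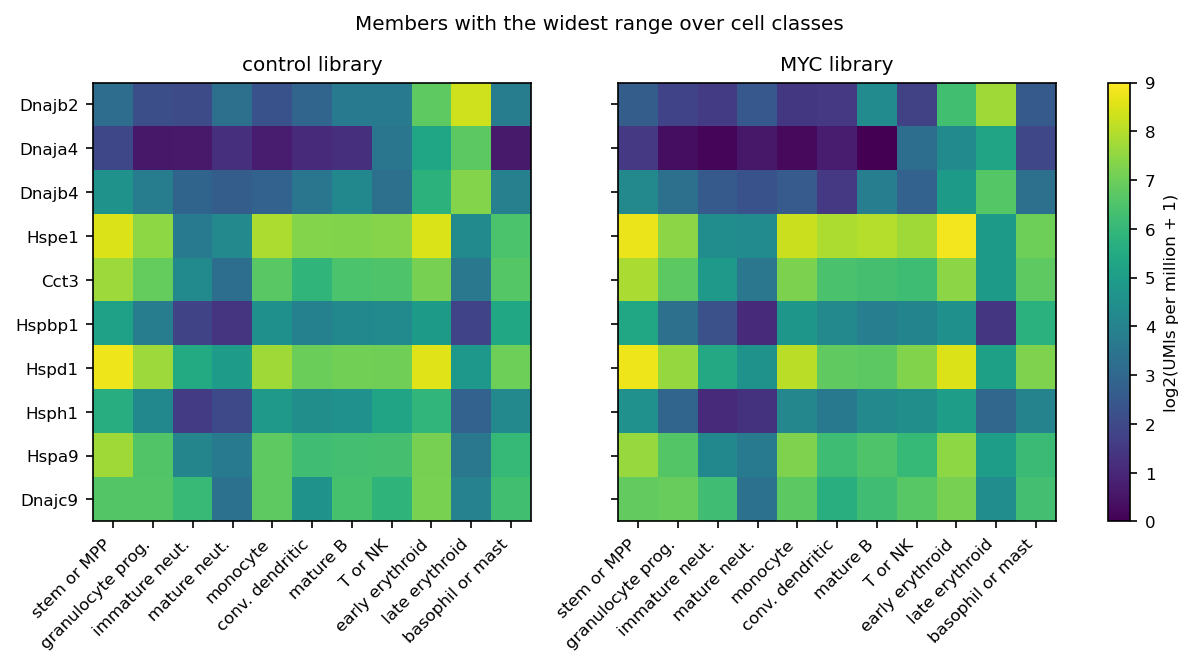
Levels of the 10 members with the widest range over cell classes (rows) in each class (columns), as log2(CPM + 1), in the control library (left) and the MYC library (right). Dnajb2, Dnaja4 and Dnajb4 are brightest in late erythroid cells of both libraries (324 and 211 CPM for Dnajb2), whereas Hspd1 is brightest in stem or multipotent progenitors (434 and 435).

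Between the libraries, log2 ratios are MYC over control with 1 CPM added to each level, and a feature was compared in a class with at least 50 UMIs there. Intervals of log2 ratios are those of the ratio without the added 1 CPM. The ratios moved with transcript length in every class, for members as for other genes. Features whose longest annotated transcript is under 1500 bases had a median of 0.32 in stem or multipotent progenitors, those of 1500 to under 3000 bases 0.02 and those of 3000 bases or more -0.29. In monocytes these medians were 0.25, -0.01 and -0.28, and in early erythroid cells 0.34, 0.06 and -0.18. The rank correlation of ratio and length across features lay between -0.53 (granulocyte progenitors, 9608 features) and -0.33 (early erythroid cells, 9968 features). Across the members it lay between -0.68 (55 members, stem or multipotent progenitors) and -0.32 (41 members, T or NK cells). All these points share the same 2 libraries, and genes are not independent. The part of transcript length in any single ratio was not tested, and ratios called centred below are relative to the median of features of like length, in 10 bins, a setting added after the data were seen. Median-of-ratios scaling, an alternative to CPM, moved the median of all features by over 0.1 in 8 classes, for example from -0.30 to -0.02 in granulocyte progenitors and from 0.31 to -0.26 in late erythroid cells.

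**Figure D3:**
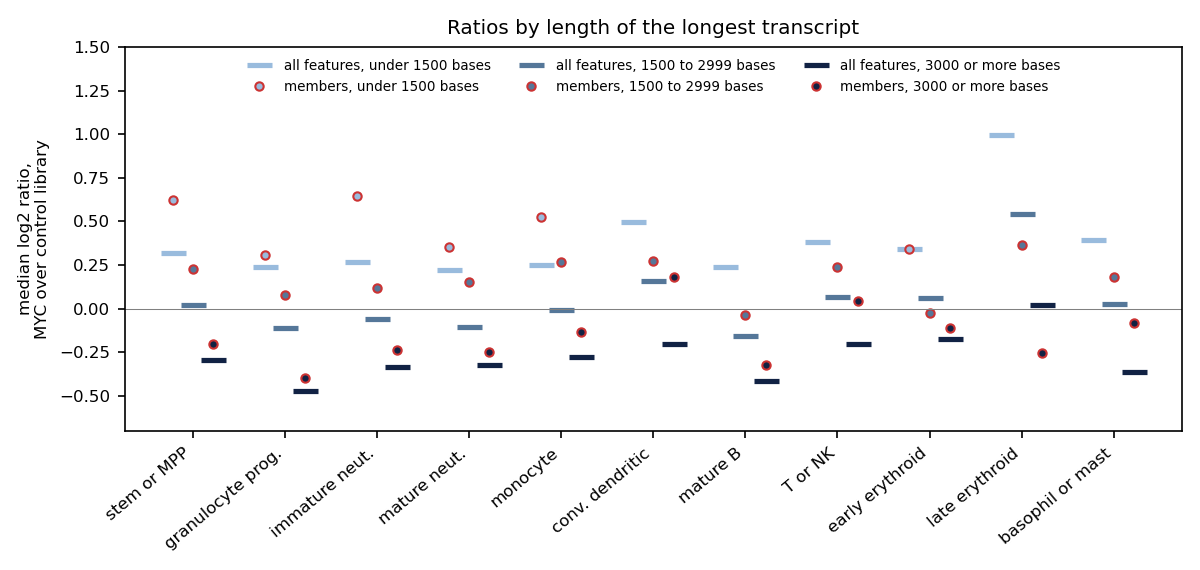
Median log2 ratio of the MYC over the control library (vertical axis) by cell class, for features with longest transcripts of under 1500, 1500 to under 3000 and 3000 or more bases; dashes are all compared features and red-edged points the members, where at least 3 were compared. In stem or multipotent progenitors the dashes run from 0.32 to -0.29 and the points from 0.62 to -0.21.

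The share of members with a large ratio was below that of all features in 10 of the 11 classes, immature neutrophils being the exception. Under the alternatives it was below in 8 to 11 of 11 classes where all had a value. Centred on length it was below in 9 of 11, but by little in several. The centred shares were 9.09% of members against 10.6% of features in stem or multipotent progenitors and 20% against 20.7% in early erythroid cells. Members were above in granulocyte progenitors (13.8% against 12.3%) and late erythroid cells (50% against 47.9%). With median of ratios monocytes had 23.0% of members against 16.0% of features, and with mitochondrial UMIs under 5% 33.9% against 29.5%. A ratio of at least 1.5-fold either way was found for 9.09% of 55 compared members in stem or multipotent progenitors (17.4% of all compared features), 17.2% of 58 in granulocyte progenitors (28.4%) and 19.6% of 56 in immature neutrophils (18.8%). The shares were 13.5% of 52 in mature neutrophils (23.5%), 9.84% of 61 in monocytes (17.4%) and 22.5% of 40 in conventional dendritic cells (31.8%). Lymphoid classes had 24.4% of 41 in mature B cells (34.1%) and 9.76% of 41 in T or NK cells (23.8%). Early erythroid cells had 15% of 60 (24.9%), late erythroid cells 50% of 18 (56.1%) and basophils or mast cells 17.1% of 41 (28.9%). In monocytes, for example, the 5 lower members were Hspa1a, Hspa1b, Hsph1, Hspa4l and Dnajb2 and the 1 higher was Dnajc17. The median ratio of compared members was 0.13 there (all features -0.15), -0.11 in granulocyte progenitors (-0.30) and -0.03 in early erythroid cells (-0.05).

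**Figure D4:**
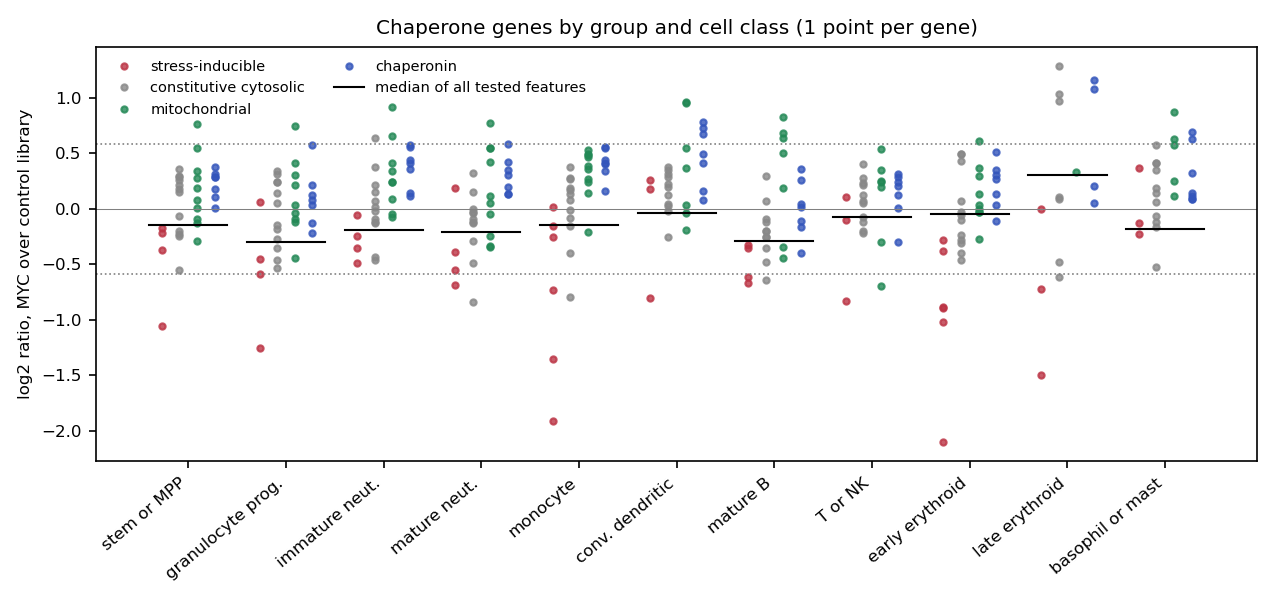
Log2 ratio of the MYC over the control library (vertical axis) for each compared gene of 4 chaperone groups (colours) in each cell class; black dashes are medians of all compared features and dotted lines mark 1.5-fold. Red stress-inducible points reach -2.10 (Hspa1b, early erythroid cells) and -1.91 (Hspa1b, monocytes), and all 7 blue chaperonin points lie above 0 in monocytes.

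The inducible HSP70 genes Hspa1a (GRCm38, chromosome 17, 34969190 to 34972156) and Hspa1b (34956436 to 34959238 of the same chromosome) were lower in the MYC library, with an interval of the fold above 1, in 5 classes. Summed over both genes, conventional dendritic cells stood at 39.7 CPM in the control (72 UMIs) and 9.14 CPM in the MYC library (15 UMIs). Monocytes stood at 15.8 CPM (184 UMIs) and 3.72 CPM (68 UMIs), with intervals of 13.6 to 18.3 and 2.89 to 4.72 CPM that did not overlap. In early erythroid cells the levels were 6.84 CPM (143 UMIs) and 0.292 CPM (2 UMIs), in stem or multipotent progenitors 5.16 CPM (27 UMIs) and 0.691 CPM (3 UMIs), and in granulocyte progenitors 4.32 CPM (45 UMIs) and 0.248 CPM (2 UMIs). The control level was thus 4.34-fold that of the MYC library in dendritic cells (2.46 to 8.15) and 4.26-fold in monocytes (3.21 to 5.71). The monocyte value was smaller under several alternatives. Its log2 ratio was -1.03 when classes came from markers alone and -1.07 with mitochondrial UMIs under 5%, against -1.83 (1 CPM added in each). At Leiden resolution 2 it was smaller too, as given in the closing section. In stem or multipotent progenitors marker-only classes gave -0.77 against -1.87, and in granulocyte progenitors mitochondrial UMIs under 5% gave -1.19 against -2.09. For the 3 classes with 2 or 3 UMIs in the MYC library the folds were 23.5 (6.37 to 195.5) in early erythroid cells, 7.47 (2.30 to 38.5) in stem or multipotent progenitors and 17.4 (4.54 to 148) in granulocyte progenitors.

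No such difference was measured in neutrophils. Their sums were 0.741 and 0.732 CPM when immature and 0.828 and 0.735 CPM when mature, with folds of 1.01 (0.490 to 2.08) and 1.13 (0.50 to 2.57). Mature B, T or NK, late erythroid and basophil or mast cells held 0 to 9 UMIs per library, too few to show a difference of this size. Taken singly, in monocytes Hspa1a had 80 and 38 UMIs and Hspa1b 104 and 30, with log2 ratios of -1.36 and -1.91 (centred -1.26 and -1.87). Early erythroid cells held 48 and 0 UMIs of Hspa1a and 95 and 2 of Hspa1b. Among 14 genes of an immediate early and dissociation response, 7 were at least 1.5-fold higher in the MYC library in monocytes and 0 lower, and 5 of 11 were higher and 0 lower in early erythroid cells. Granulocyte progenitors had 3 higher and 0 lower of 11 (Fosb, Jund and Egr1; 3.64% and 24.8% of all features there) and stem or multipotent progenitors 1 and 1 of 11 (Jund and Fosb; 5.2% and 12.2%). Immature neutrophils, where the HSP70 fold was 1.01, had 6 higher and 0 lower of 13 (5.85% and 13%), and dendritic cells 1 and 2 of 13 (Socs3, and Fos and Zfp36; 15.8% and 16% of all features there). Their part in the HSP70 difference was not tested. Features that far apart made up 5.41% (higher) and 12% (lower) of all compared in monocytes, and 11.9% and 13% in early erythroid cells.

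Few cells held an HSP70 UMI. At such low levels this, and a high share of UMIs in the richest cells, follow largely from the counts themselves. In both neutrophil classes of the control, for example, the richest 1% of cells held 100% of these UMIs. In control monocytes 12.6% of cells had at least 1 UMI and in those of the MYC library 4.80%; thinned to 2000 UMIs per cell, which left out 1 and 10 cells, the shares were 2.72% (1.59 to 4.31) and 0.527% (0.171 to 1.23). Dendritic cells had 4.47% and 1.99% after thinning, with intervals that overlapped, and 11.3% and 4.73% before. Thinned shares did not separate the libraries in the other 3 classes: 0.843% (0.386 to 1.59) and 0% (up to 1.04) in early erythroid cells, 0.394% and 0% in granulocyte progenitors, and 0% and 0.472% in stem or multipotent progenitors, the last in the opposite order to the CPM. Mature neutrophils, at median depths of 3984 and 5283 UMIs against 16522 and 18020 in monocytes, had thinned shares of 0.212% and 0.268%. In the control the richest 1% of cells held 60% of the HSP70 UMIs of granulocyte progenitors (6 cells), 44.1% in early erythroid cells (12 cells), 40.3% in dendritic cells (3 cells), 37.0% in stem or multipotent progenitors (3 cells) and 27.7% in monocytes (7 cells). Without the richest 1% in each library, a setting added after the data were seen, the levels were 11.7 and 2.16 CPM in monocytes, and 24.5 and 4.98 CPM in dendritic cells. Control levels were then 3.95 CPM in early erythroid cells, 3.33 in stem or multipotent progenitors and 1.76 in granulocyte progenitors. In these 3 classes the richest 1% held every HSP70 UMI of the MYC library, whose level of 0 was thus fixed by the setting, and nothing is read from their ratios (log2 -2.31, -2.11 and -1.46).

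Cells outside the comparisons mostly differed in the same direction. Barcodes removed for 10% or more mitochondrial UMIs held 13.9 CPM of Hspa1a and Hspa1b in the control (1475 barcodes) and 4.0 CPM in the MYC library (1592 barcodes). An unnamed cluster of low depth, with median UMIs of 746 and 804, had 9.06 and 2.52 CPM. Macrophages stood at 103 CPM in 20 control cells and 6.504 CPM in 626 cells of the MYC library, and plasma cells at 7.60 and 1.68 CPM. A smaller difference was measured in 2 unnamed clusters whose best marker score was that of monocytes, left unnamed because of their leading genes. The larger (670 and 643 cells, led by Arhgef37, Ms4a8a, Slfn5, Lrp1, Vcan and Fn1), about as many cells as the 627 control monocytes, held 8.33 and 6.35 CPM. Its log2 ratio, -0.34, had an interval with 0 inside (-1.002 to 0.21), as did that of the smaller (134 and 71 cells, led by Ace and S1pr5) with 20.5 and 8.40 CPM. Within the deeper of the 2 early erythroid clusters (283 and 132 cells) the levels were 12.7 and 0.519 CPM. The share of barcodes with high mitochondrial UMIs was 8.64% (control) and 11.0% (MYC), and its part in these differences was not tested.

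**Figure D5:**
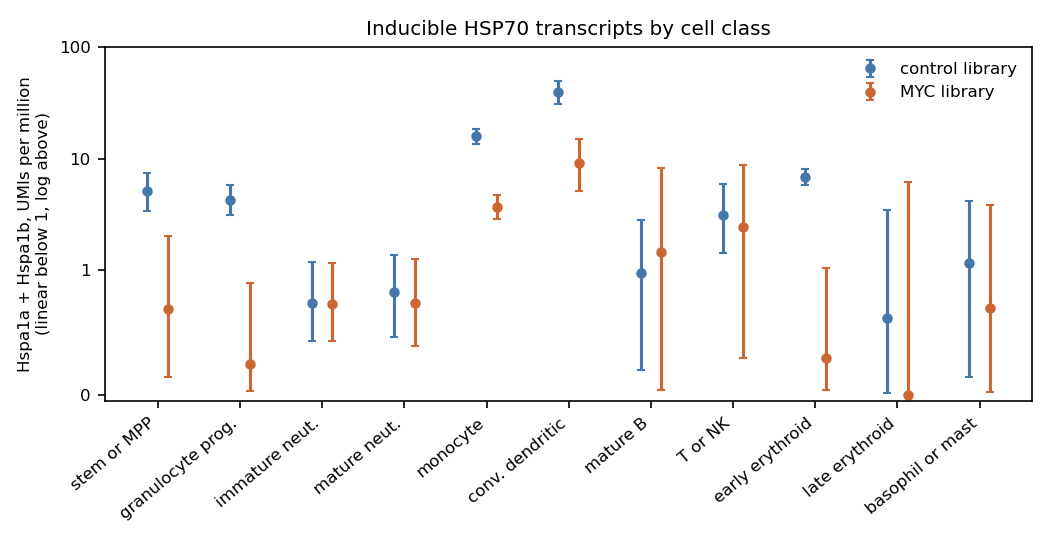
Hspa1a plus Hspa1b in CPM (vertical axis, linear below 1 and log above) by cell class, for the control library (blue) and the MYC library (orange); bars are exact 95% Poisson intervals for counting error, with 1 library per group. Control monocytes and dendritic cells sit at 15.8 and 39.7, above the 3.72 and 9.14 of the MYC library, and both neutrophil classes sit below 1 in both libraries.

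Hsph1 (chromosome 5, 149614287 to 149636376), the HSP110 exchange factor that opens HSP70 after its cycle, was lower in the MYC library in all 10 classes where it was compared. Levels in control and MYC cells were 59.3 and 31.7 CPM in early erythroid cells (log2 ratio -0.89, -1.12 to -0.70), 47.6 and 22.3 CPM in stem or multipotent progenitors (-1.06, -1.45 to -0.75) and 28.4 and 16.7 CPM in monocytes (-0.73). Granulocyte progenitors had 17.4 and 6.71 CPM (-1.25). The interval excluded 0 in 8 of the 10, the exceptions being mature B cells and basophils or mast cells. Its longest transcript has 4764 bases, and centred ratios had a median of -0.54, from -0.83 to 0.14, and were below 0 in 8 of 10 classes. All 10 were below 0 under both other scalings tried (median of ratios, and totals without the ribosomal RNA-like feature Gm42418). Its relative Hspa4l, another HSP110-type factor with a transcript of 9479 bases, stood at 50.9 and 29.6 CPM in granulocyte progenitors, 45.3 and 27.9 CPM in stem or multipotent progenitors and 79.3 and 48.4 CPM in early erythroid cells. Over 10 classes its median was -0.67, but -0.27 once centred.

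Hsp90aa1 (chromosome 12, 110690605 to 110702728), the inducible HSP90 isoform, stood at 818 and 543 CPM in granulocyte progenitors (log2 ratio -0.59, -0.64 to -0.54), 157 and 107 CPM in mature neutrophils (-0.55) and 485 and 304 CPM in mature B cells (-0.67). Early erythroid cells had 1425 and 1170 CPM (-0.28; 705 and 630 in their shallower and 2464 and 1590 in their deeper cluster) and monocytes 777 and 785 CPM (0.02). It was above 0 in 2 of 11 classes (3 with median of ratios, 0 without Gm42418), and the median over classes was -0.22, or -0.06 centred. Hsp90ab1 (chromosome 17, 45567775 to 45573271), the constitutive isoform, was higher in the MYC library in 11 of 11 classes, each with an interval above 0 (in 10 of 11 without Gm42418 in the totals). It stood at 2734 and 3329 CPM in stem or multipotent progenitors (0.28, 0.25 to 0.32), 1524 and 2052 CPM in early erythroid cells (0.43) and 256 and 400 CPM in immature neutrophils (0.64). The shallower early erythroid cluster held 562 and 643 CPM of it and the deeper 2911 and 3150 CPM, smaller differences than in the class. The lowest ratio was 0.13 in T or NK cells, and 1.29 in late erythroid cells the highest. Centred ratios were above 0 in 11 of 11 classes too, between 0.11 and 0.92.

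The other stress-inducible genes varied by class. Dnajb1, the chief J protein of inducible HSP70, had 85.8 and 65.6 CPM in early erythroid cells (log2 ratio -0.38, -0.54 to -0.24) and otherwise ratios on both sides of 0 whose intervals included it. Dnajb4 had 54.6 and 28.9 CPM in early erythroid cells (-0.90) and was below 0 in 8 of 8 classes, with a median of -0.38, or -0.07 centred. Dnaja4 had 38.9 and 18.7 CPM in early (-1.02) and 106.5 and 37.1 CPM in late erythroid cells (-1.496), with centred ratios of -0.95 and -1.79. Hspb1 and Hspb8 were never compared, with at most 5 UMIs per library in any compared class. The median of the stress-inducible genes compared was -0.89 in early erythroid cells (6 genes, all features -0.05), -0.52 in granulocyte progenitors (4 genes, -0.30) and -0.49 in monocytes (6 genes, -0.15). Centred, these medians were -0.70, -0.14 and -0.23. In dendritic cells it was 0.18 (3 genes, -0.03; below 0 in 4 of 10 alternatives), where Hspa1a and Hspa1b had under 50 UMIs each and were not compared singly. The median was below 0 in 10 of 11 classes, 9 with median of ratios, 11 without Gm42418 and 9 centred, where basophils or mast cells stood at 0.14 (in T or NK cells it was 0.18 with mitochondrial UMIs under 5%), and that of all features was below 0 in 10 of 11, late erythroid cells being the exception.

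Among the constitutive cytosolic genes Hspa8, the everyday HSP70, had class ratios near 0 in some larger classes. It stood at 1318 and 1257 CPM in stem or multipotent progenitors (log2 ratio -0.07), 1601 and 1511 CPM in monocytes (-0.08) and 1009 and 987 CPM in early erythroid cells (-0.03). The shallower early erythroid cluster held 415 and 373 CPM of Hspa8 and the deeper 1866 and 1464 CPM. In the unnamed monocyte-like cluster of 670 and 643 cells Hspa8 was higher in the MYC library, at 984 and 1273 CPM. The median ratio over 11 classes was -0.03 (centred 0.16), and 4 classes were above 0 (9 with median of ratios, 3 without Gm42418, 11 centred). No gene of the 12 in this group was 1.5-fold apart in stem or multipotent progenitors, granulocyte progenitors or early erythroid cells (17.4%, 28.4% and 24.9% of all features were). None of 11 compared was in dendritic, T or NK and basophil or mast cells (31.8%, 23.8% and 28.9%). In monocytes and immature neutrophils 1 of 12 was (17.4% and 18.8%). Mature neutrophils and mature B cells had 1 of 11 (23.5% and 34.1%), and late erythroid cells 4 of 7 (56.1%). Dnajb2 was below 0 in 7 of 7 classes, with 107 and 77.3 CPM in early erythroid cells (-0.46) and 8.99 and 4.58 CPM in mature neutrophils (-0.84), and centred ratios below 0 in 7 of 7. Dnajc2, which sits with Hspa14 on ribosomes, had 76.2 and 108 CPM in early erythroid cells (0.49, 0.37 to 0.63) and was above 0 in 9 of 10 classes. Dnajc7 had 77.6 and 99.7 CPM in stem or multipotent progenitors (0.36) and 55.7 and 70.7 CPM in granulocyte progenitors (0.34). Dnajc5 was below 0 in 10 of 10 classes, with 121 and 85.9 CPM in mature neutrophils (-0.49), but in 6 of 10 after centring. Dnajb6 was below 0 in 10 of 11 (11 without Gm42418, 5 with median of ratios). Hspa4, Hspa14, Dnaja2 and Hspbp1 had medians between -0.09 and 0.21 over their classes.

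The chaperonin genes were mostly above 0. All 7 compared subunits were higher in the MYC library in stem or multipotent progenitors, immature and mature neutrophils, monocytes, dendritic cells and basophils or mast cells, against medians of all features below 0 in each of these classes. Their medians were 0.28 in stem or multipotent progenitors (all features -0.15), 0.42 in immature neutrophils (-0.19), 0.41 in monocytes (-0.15) and 0.49 in dendritic cells (-0.03). In T or NK and in early erythroid cells 6 of 7 were above 0, in granulocyte progenitors 5 of 7 and in mature B cells 4 of 7 (median 0.02). In 7 of the 11 classes none of 7 reached 1.5-fold, where 3.64% (granulocyte progenitors) to 11.9% (early erythroid cells) of all features were that much higher. In dendritic cells 3 of 7 did (15.8% of all features), in basophils or mast cells 2 of 7 (8.78%), in mature neutrophils 1 of 7 (6.11%) and in late erythroid cells 2 of 4 (37.7%). Centred medians were above 0 in 11 of 11 classes, from 0.10 in T or NK cells to 0.48 in immature neutrophils. The plain medians were above 0 in 11 of 11 too, also with median of ratios, and in 10 of 11 without Gm42418 in the totals. In early erythroid cells the median, 0.27, was slightly below 0 in 3 of 12 alternatives (doublets kept, resolution 2 and mitochondrial UMIs under 5%), the lowest being -0.033.

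By subunit, Cct4 (chromosome 11, 22990519 to 23003780) stood at 169 and 206 CPM in stem or multipotent progenitors (log2 ratio 0.28, 0.15 to 0.42), 87.6 and 131 CPM in granulocyte progenitors (0.58, 0.45 to 0.71) and 133 and 189.8 CPM in early erythroid cells (0.51, 0.42 to 0.61). Cct5 had 191 and 282 CPM in monocytes (0.56), Cct8 209 and 271 CPM in stem or multipotent progenitors (0.37) and Cct2 29.0 and 44.1 CPM in mature neutrophils (0.59). Cct2, Cct4, Cct5 and Cct8 were above 0 in every class where they were compared, 10, 10, 11 and 11 classes (without Gm42418 in the totals 10, 8, 10 and 9). Cct3 had 102 and 149.7 CPM in monocytes (0.55) but was below 0 in 3 of 10 classes, among them granulocyte progenitors (116 and 106 CPM). Cct6a and Cct7 had the medians closest to 0, 0.08 and 0.13, and without Gm42418 4 and 8 of 11 classes were above 0. Cct6b had under 50 UMIs in each class. Tcp1, the remaining subunit of the ring, whose symbol falls outside the rule, had 252 and 267 CPM in stem or multipotent progenitors and 275 and 257 CPM in early erythroid cells, and was above 0 in 6 of 11 classes (median 0.03, 9 with median of ratios and 4 without Gm42418).

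Of the mitochondrial genes, HSP60 and its lid differed in their plain medians but hardly in their centred ones. Hspd1 (HSP60) had 434 and 435 CPM in stem or multipotent progenitors, 377 and 370 CPM in early erythroid cells and 210 and 269 CPM in monocytes (log2 ratio 0.36), with a median of -0.03 over 11 classes. Hspe1 (HSP10) had 370 and 421 CPM, 358 and 461 CPM, and 238 and 312 CPM in those classes and was above 0 in 9 of 10 (10 with median of ratios). In the deeper early erythroid cluster Hspd1 stood at 823 and 604 CPM and Hspe1 at 779 and 752 CPM. The shallower held 67.9 and 68.6 CPM of Hspd1 and 65.6 and 86.0 CPM of Hspe1. The longest Hspe1 transcript has 964 bases and that of Hspd1 2423. The Hspe1 median was 0.38, or 0.01 centred, with 6 of 10 centred ratios above 0. The centred Hspd1 median was -0.02, with 5 of 11 above 0. Hspa9, the mitochondrial HSP70 mortalin, had 108 and 152 CPM in monocytes (0.50, 0.40 to 0.60) and 209 and 196 CPM in stem or multipotent progenitors (-0.09). Dnajc15 and Dnajc19, J proteins of the import motor, were higher in 10 of 10 classes each, with medians of 0.58 and 0.39 (0.85 and 0.50 centred; 9 of 10 for Dnajc19 without Gm42418). Dnajc15 had 19.1 and 37.1 CPM in immature neutrophils (0.92, 0.79 to 1.12), 25.4 and 39.2 CPM in early erythroid cells (0.61) and 57.9 and 114 CPM in dendritic cells (0.97). Dnajc30, which binds the ATP synthase, was above 0 in 7 of 7 (6 without Gm42418), and Dnajc4 in 5 of 6, with 4.59 and 8.52 CPM in stem or multipotent progenitors (0.77, centred 0.49). Dnajc11 and Dnajc28 had medians of -0.27 and -0.25, and Dnaja3 0.16.

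Endoplasmic reticulum J proteins varied by class. In granulocyte progenitors 1 of 8 was above 0 (median -0.22, all features -0.30) and in monocytes 2 of 8 were (-0.20, all features -0.15), against 4 of 8 in stem or multipotent progenitors (-0.01, all features -0.15), 4 of 6 in T or NK cells (0.22, all features -0.07) and 4 of 6 in dendritic cells (0.07, all features -0.03). Dnajc3, the luminal cochaperone p58IPK, had 174 and 119.8 CPM in granulocyte progenitors (log2 ratio -0.53) and 148 and 108 CPM in monocytes (-0.45, -0.55 to -0.36), with centred ratios of -0.06 and -0.16. Dnajb11, which works with BiP on new chains, had 92.8 and 94.5 CPM in the former and 63.1 and 86.2 CPM in stem or multipotent progenitors (0.44). Dnajb14, a membrane J protein, had 75.1 and 48.0 CPM in immature (-0.64, centred -0.21) and 44.4 and 18.7 CPM in mature neutrophils (-1.21, -1.44 to -1.06, centred -0.82), where the clusters differ in makeup between the libraries. With median of ratios the group's median was above 0 in 7 of 10 classes, against 2 in CPM. Dnajb12, Dnajc1, Dnajc10, Dnajc18 and Dnajc25 had medians from -0.22 to 0.18. Of the nuclear and ribosome J proteins 5 of 5 were above 0 in immature neutrophils (median 0.18, all features -0.19), 4 of 5 in monocytes (0.33, all features -0.15), granulocyte progenitors (0.31, all features -0.30) and stem or multipotent progenitors (0.25, all features -0.15), 3 of 5 in mature neutrophils (0.18, all features -0.21) and early erythroid cells (0.32, all features -0.05) and 1 of 3 in mature B cells (-0.12, all features -0.29). Dnajc17, a splicing factor, was higher in 6 of 6 classes, for example 11.7 and 20.5 CPM in monocytes (0.76), and still 0.45 as a median once centred. Dnajc9, a histone chaperone, had 56.6 and 99.8 CPM in T or NK cells (0.81) and 95.3 and 119.6 CPM in granulocyte progenitors (0.32), but 145.5 and 143 CPM in early erythroid cells. Dnajc24, a factor of diphthamide synthesis, had 12.6 and 26.5 CPM in stem or multipotent progenitors (1.01, centred 0.71). Dnajc8, Dnajc9 and Dnajc21 had medians of 0.18, 0.12 and 0.20, and 0.00045, 0.00014 and 0.26 centred.

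Among members in none of these groups Dnajc13, an endosomal J protein, had 112 and 57.9 CPM in granulocyte progenitors (log2 ratio -0.95, -1.12 to -0.80, centred -0.34), 46.3 and 37.3 CPM in stem or multipotent progenitors (-0.30, centred 0.10) and 63.0 and 40.2 CPM in immature neutrophils (-0.64, centred -0.21). It was below 0 in 10 of 10 classes, in 9 with median of ratios and 7 after centring, and its longest transcript has 8012 bases. Hspa13, a microsomal HSP70 relative, had 30.3 and 15.3 CPM in granulocyte progenitors (-0.94, centred -0.56), and Dnajc14 36.8 and 24.5 CPM in immature neutrophils (-0.57, centred -0.30). Hspb11, an intraflagellar transport subunit despite its symbol, was above 0 in 7 of 8 classes, with 15.4 and 30.5 CPM in dendritic cells (0.94). Dnajc16 was below 0 in 6 of 6 (5 with median of ratios), with 14.3 and 5.98 CPM in early erythroid cells (-1.13, centred -0.94), but its centred median was -0.01 and 3 of 6 centred ratios were above 0. Hspbap1 had 66.9 and 33.7 CPM in late erythroid cells (-0.97) and was below 0 in 5 of 6 classes, or 4 of 6 centred. The remaining members were low: Dnajb3, Dnajb5, Dnajc6, Dnajc12, Dnajc27, Hspa12a, Hspa2 and Hspb6 reached at most 16.3 CPM in any compared class of the control.

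Of 29 genes chosen as the rest of the pathway, that is heat shock factors, HSP90 cochaperones, BAG proteins and prefoldin, 1 was at least 1.5-fold higher and 1 lower of 27 compared in stem or multipotent progenitors (Bag2 and Hsf2), where 5.2% and 12.2% of all features were. In granulocyte progenitors 0 and 3 of 27 were (3.64% and 24.8% of all features). Early erythroid cells had 4 higher and 0 lower of 27 (11.9% and 13% of all features) and mature neutrophils 4 and 0 of 24 (6.11% and 17.4%). Basophils or mast cells had 5 and 0 of 23 (8.78% and 20.1%) and dendritic cells 3 and 0 of 22 (15.8% and 16%). Lymphoid classes had 4 and 2 of 24 in T or NK cells (9.75% and 14%) and 2 and 2 of 21 in mature B cells (6.42% and 27.7%). Monocytes had 1 and 1 of 28 (5.41% and 12%), immature neutrophils 0 and 0 of 25 (5.85% and 13%), and late erythroid cells 3 and 0 of 5 (37.7% and 18.4%). The list's median lay above that of all features in each of the 11 classes. The 3 lower genes in granulocyte progenitors were Bag3, Stip1 and Chordc1, which pass clients between HSP70 and HSP90 or act beside them. Stip1 was below 0 in 9 of 10 classes, 10 without Gm42418 (129 and 88.0 CPM in stem or multipotent progenitors). Hsf1, the heat shock factor itself, had 30.03 and 21.2 CPM there and 15.2 and 15.5 CPM in early erythroid cells. The prefoldin subunits Pfdn2 and Pfdn5, which hand clients to TRiC, were above 0 in 10 of 10 and 11 of 11 classes, with medians of 0.53 and 0.58 (0.38 and 0.23 centred). Pfdn1, Pfdn4 and Pfdn6 had medians of 0.22, 0.38 and 0.39, but -0.06, 0.07 and 0.05 centred. The subunit Vbp1 was below 0 in 9 of 11 classes (7 with median of ratios, 10 without Gm42418), with a median of -0.22 (-0.32 centred).

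Across the 22 class and library values, the genes whose levels ran most like the summed Hspa1a and Hspa1b were Ogfr (Pearson correlation 0.84), Abca9 (0.83), Clec9a (0.82), Myo9a (0.81) and Mob3b (0.80), out of 7914 features. The points share 2 libraries and cell depth, so this is a description only. The median over all these features was 0.27. Of the other stress-inducible genes Hsph1 reached 0.47, Hsp90aa1 0.33, Dnajb1 0.17, Dnaja4 -0.17 and Dnajb4 -0.25, and Hspa8 reached 0.59. Of the immediate early and dissociation genes with a value, Atf3 reached 0.63 and the others lay between -0.40 (Ier3) and 0.25 (Fos).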

How the data were processed

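Single-cell 3′ RNA sequencing was done on marrow cells of 2 mouse libraries, 1 per genotype. The deposited values are whole-number counts of UMIs per gene and barcode, which the authors made with Cell Ranger 6.0 and Seurat on GRCm38 (mm10), per the submitters' processing notes; the matrix header names Cell Ranger 6.0.0. The library totals were 131884603 and 110012176 UMIs.

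The members and gene lists were chosen with earlier results of these data known. Barcodes needed at least 500 UMIs, 200 genes and under 10% mitochondrial UMIs, and 1475 control and 1592 MYC barcodes were removed as mitochondrial. Doublets were removed at a Scrublet score over 0.2 in both libraries (3.61% and 2.76%), because the automatic threshold called 0 in the MYC library. Cells were clustered with the Leiden method (scanpy 1.11.5, igraph 0.11.9, 2000 variable genes, 30 principal components, 15 neighbours, resolution 1, seed 0) and clusters named from markers. A cluster whose median UMIs were under 0.2 of its library's stayed unnamed. That rule was set with the data in view.

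UMIs were summed per class and library for the classes with at least 100 cells in each. Log2 ratios used CPM plus 1 and features with at least 50 UMIs, and a ratio past 1.5-fold was counted as large. No test across samples was possible. Intervals are exact Poisson intervals for levels, exact binomial ones for ratios (conditional on the summed UMIs, without the added 1 CPM) and for shares, and they cover counting error only. Intervals of group medians, used only to judge the alternatives, are order-statistic intervals over the genes of a group. In small groups they run from the lowest to the highest ratio, and in the smallest they cover less than 95%. Transcript length was that of the longest GENCODE transcript, found for 32158 of 32286 features. The calculation was tested on simulated data. Python 3.11.15, numpy 2.4.6, scipy 1.17.1, pandas 2.3.3, scikit-learn 1.9.0 and matplotlib 3.10.9 were used.

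Genes were named by a rule: the stress-inducible, chaperonin and HSP60, HSP10 and mortalin genes with Hspa8 and Hsp90ab1; per class with at least 200 cells, the 3 highest and the 3 lowest ratios of members, among those at 20 CPM or more whose interval excluded no difference; the 10 members varying most over classes; and the 5 features most like the HSP70 sum. Further members were named after their values were seen, and 1 is not reported here. Alternatives covered the scaling, totals without Gm42418, the mean over cells, the low-count filter, the added CPM, cell filters, doublets, clustering, marker-only classes and thinning depth. Length centring and leaving out the richest cells were added after the data were seen.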

Additional observations from a re-analysis of the deposited data

How the results depend on the processing

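With 1 library per genotype no replicate could be left out. No paired analysis was possible because there is 1 library per group and no test. Group medians near 0 changed sign: 39 of 497 values under the alternatives had the other sign (22 of 128 constitutive, 7 of 126 stress-inducible, 6 of 116 mitochondrial and 4 of 127 chaperonin), as had 144 of 2015 ratios of single members, among them 23 of 117 for Hspa8, 19 of 106 for Hspa9 and 18 of 117 for Hspd1. No median whose interval excluded 0, and no member past 1.5-fold, was among them. Of the 497 medians 471 moved by less than their spread, of 117 counts of members past 1.5-fold 98 stayed within 1.5 times, of 53 HSP70 sums 41 did not move beyond their interval, of 12 shares of cells 8, and of 2015 ratios of single members 1580. The HSP70 log2 ratio was below 0 in each alternative counted: -2.23 to -1.60 in dendritic cells, -3.40 to -1.16 in early erythroid cells, -2.31 to -0.83 in granulocyte progenitors, -2.001 to -1.03 in monocytes and -2.01 to -0.77 in stem or multipotent progenitors. The cause of the moves below was not tested, except that an added 5 CPM shrinks ratios of low genes and the absence of a filter adds genes. Where values moved, they were as follows. With 5 CPM added the HSP70 ratio was -1.16 in early erythroid cells, -0.83 in granulocyte progenitors, -1.26 in monocytes and -0.84 in stem or multipotent progenitors. With mitochondrial UMIs under 5% it was -3.40, -1.19 and -1.07 in the first 3 of these, the counts were 17 in dendritic cells, 3 in mature B cells, 20 in monocytes and 9 in stem or multipotent progenitors (9, 10, 6 and 5 otherwise), and medians were 0.34 (T or NK) and 0.71 (monocytes) for the chaperonin, -0.18 (early erythroid), 0.47 (granulocyte progenitors) and 0.55 (monocytes) for the mitochondrial and 0.18 (T or NK) for the stress-inducible genes. With classes from markers alone the HSP70 ratio was -1.03 in monocytes and -0.77 in stem or multipotent progenitors, the counts 26 in late erythroid cells and 13 in monocytes, and the chaperonin median in monocytes 0.57. At resolution 2 the HSP70 ratio was -3.12 in early erythroid cells and -1.35 in monocytes, the count in late erythroid cells 25 and the mitochondrial median in early erythroid cells -0.084; at resolution 0.5 the stress-inducible median in mature neutrophils was -0.73. With doublets kept the HSP70 ratio in early erythroid cells was -3.11, the mitochondrial median there -0.083 and the counts 12 in basophils or mast cells and 14 in dendritic cells. With at least 1000 UMIs and 500 genes the stress-inducible median in dendritic cells was 0.35. With median of ratios the counts were 6 in mature B cells and 14 in monocytes, chaperonin medians 0.62 in immature neutrophils, 0.58 in monocytes and 0.43 in stem or multipotent progenitors, constitutive medians 0.26 in granulocyte progenitors, 0.28 in monocytes and 0.31 in stem or multipotent progenitors, the mitochondrial median in monocytes 0.54, and stress-inducible medians -0.31 in mature B cells and -0.15 in stem or multipotent progenitors. Without Gm42418 medians were 0.056 (chaperonin, basophils or mast cells), -0.026 (constitutive, dendritic cells) and -0.11 (mitochondrial, early erythroid cells). Without a low-count filter the counts were 21 in T or NK cells, 23 in basophils or mast cells, 22 in dendritic cells, 43 in late erythroid cells, 27 in mature B cells and 10 in stem or multipotent progenitors. Length-centred, the counts were 6 in immature neutrophils and 4 in mature B cells, and medians 0.11 (constitutive) and -0.16 (stress-inducible) in mature B cells and -0.065 (stress-inducible) in stem or multipotent progenitors. Shares of cells with an HSP70 UMI were 1.12% in control monocytes thinned to 1000 UMIs, and unthinned 11.3% in control dendritic cells and 12.6% and 4.80% in control and MYC monocytes. Leaving out the richest 1% of cells is not counted above in stem or multipotent progenitors, granulocyte progenitors and early erythroid cells, whose MYC UMIs all lay in those cells (log2 ratios of -2.11, -1.46 and -2.31, fixed at 0 UMIs). No value was found for stem or multipotent progenitors with doublets kept, with at least 1000 UMIs or at resolution 0.5, or for dendritic cells at resolution 0.5.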
